A study of Mus musculus with 16 samples.

Results

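The nuclear-encoded genes of the respiratory chain and the ATP synthase were followed in the cortex of 5xFAD mice fed rapamycin or vehicle. The members are the genes whose symbols begin with Nduf, Uqcr, Cox4, Cox5, Cox6, Cox7, Cox8 or Atp5, together with Sdha, Sdhb, Sdhc and Sdhd. Names marked as pseudogenes (-ps) were left out, and a member needed 10 or more counts in at least 4 of the 16 libraries. Of 47593 genes in the count table, 96 matched by name, 4 were pseudogene names, 2 fell under the count minimum, and 90 were members. They are 45 genes of complex I, 4 of complex II, 8 of complex III, 16 of complex IV and 17 of complex V, and 89 of the 90 passed the filter for testing. Cox8b was not tested. The symbol prefixes also take in assembly factors (Ndufaf1 to Ndufaf7), Ndufa4, a protein now counted with complex IV, and Atp5s and Atp5sl, which are not structural subunits of the ATP synthase.

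All mice were heterozygous 5xFAD animals on a C57BL/6-SJL hybrid background. They carried human APP with the Swedish, Florida and London mutations driven by the neuron-specific Thy-1 promoter, and every group carried this transgene. Poly(A)-selected RNA of the cortex was sequenced at 5 months of age in female vehicle (FC), female rapamycin (FR), male vehicle (MC) and male rapamycin (MR) mice, with 4 libraries in each group. Vehicle was the microencapsulation carrier in the diet, and both diets were fed from 2 to 5 months of age. The labels put 11 libraries in batch 1 and 5 in batch 2 (FC4, FR4, FR5, MC4 and MR4), and do not say what the batches are. The libraries held 16393501 to 20593089 counted read pairs. The library labelled MR4 held 9935 counts of Xist and 0 of Y-linked genes, which goes against its label as male, so the calls of members described here that change without it are named.

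Electrons from NADH enter the chain at complex I and those from succinate at complex II. They pass through complex III and cytochrome c to complex IV, where oxygen is reduced, and the proton gradient built on the way drives the ATP synthase, complex V. A small number of subunits of complexes I, III, IV and V are encoded by the mitochondrial genome, and the remaining subunits, with all of complex II, come from nuclear genes. Cortical neurons depend on this chain for the ATP that ion pumping at synapses consumes. Transcription factors known to act on the nuclear genes include NRF1, GABPA (an ETS family factor) and YY1.

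Promoter windows of these genes were searched for the core letters of the sites of these factors. RefSeq windows (GRCm38.p6) that run from 250 bases before to 50 bases after a start site were found by symbol for 72 of the 90 members. The letters GCATGCGC (NRF1), on either strand, stood in the windows of 12 of 72 members (16.7%) and of 824 of all 27025 symbols in the table (3.05%). CCGGAAG (ETS family) stood in 17 members (23.6%) and in 9.93% of all symbols. AAGATGG (YY1) stood in 10 members (13.9%) and in 7.28% of all symbols. The windows of 33 members (45.8%) held at least 1 of the 3, against 18.6% of all symbols. The 3 sets of letters do not contain one another, and a match describes the letters and is not a measured binding site. Windows of 4 members are printed 5′ to 3′ along the gene, with every match to 1 of the 3 in capitals. Uqcr11 is shown because it had the largest fold change among the members tested, Cox8a because it had the highest level per length, and Sdhb and Sdha because they belong to 1 complex and differed in their calls. Uqcr11 lies at chr10:80406772-80407071 on the minus strand, Cox8a at chr19:7217567-7217866 on the minus strand, Sdhb at chr4:140961021-140961320 on the plus strand and Sdha at chr13:74350191-74350490 on the minus strand.
Uqcr11: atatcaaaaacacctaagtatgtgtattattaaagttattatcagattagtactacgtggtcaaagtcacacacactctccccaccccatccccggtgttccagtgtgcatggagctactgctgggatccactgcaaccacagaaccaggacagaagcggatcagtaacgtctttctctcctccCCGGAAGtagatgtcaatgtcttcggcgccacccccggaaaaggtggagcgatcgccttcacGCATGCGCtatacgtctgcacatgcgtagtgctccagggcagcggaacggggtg
Cox8a: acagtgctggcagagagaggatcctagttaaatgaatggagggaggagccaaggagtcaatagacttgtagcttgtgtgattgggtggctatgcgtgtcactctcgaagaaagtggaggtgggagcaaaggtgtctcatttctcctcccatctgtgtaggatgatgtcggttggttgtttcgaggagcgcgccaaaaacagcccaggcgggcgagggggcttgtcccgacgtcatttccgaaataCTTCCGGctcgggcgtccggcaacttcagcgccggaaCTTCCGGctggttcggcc
Sdhb: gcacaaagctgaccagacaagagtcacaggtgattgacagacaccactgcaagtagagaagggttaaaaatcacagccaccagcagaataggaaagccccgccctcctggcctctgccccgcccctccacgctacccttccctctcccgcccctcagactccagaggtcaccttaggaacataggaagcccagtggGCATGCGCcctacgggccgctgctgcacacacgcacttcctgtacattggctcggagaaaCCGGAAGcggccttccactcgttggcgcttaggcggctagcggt
Sdha: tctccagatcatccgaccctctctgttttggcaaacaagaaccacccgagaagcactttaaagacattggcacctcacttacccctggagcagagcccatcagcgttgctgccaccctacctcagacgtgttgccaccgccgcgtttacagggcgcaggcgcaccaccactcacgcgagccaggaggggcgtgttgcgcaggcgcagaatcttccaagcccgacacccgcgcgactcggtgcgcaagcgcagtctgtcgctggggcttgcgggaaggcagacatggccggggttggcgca
The Uqcr11 window held CCGGAAG and GCATGCGC, the Cox8a window held CCGGAAG on the opposite strand (CTTCCGG) 2 times, and the Sdhb window held GCATGCGC and CCGGAAG. No match was found in these letters of the Sdha window. Among members with a window, 25 of 46 that rose with rapamycin held a match (54.3%), and 8 of 25 that did not pass the test (32%). Members without a matched window include Ndufs1, Sdhc, Cox4i2, Atp5f1, Ndufaf6, Atp5sl, Uqcrc2, Cox6a2, Ndufa4l2, Cox4i1, Uqcrq, Uqcrb, Atp5s, Cox6c, Ndufb9, Ndufa2 and Atp5a1.

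The first question was how abundant each subunit transcript is. Levels between genes are given per length, as TPM over the exon length in the count table, and are means of 16 libraries. A TPM value is the share of a gene among all length-scaled counts of a library. The most abundant transcripts were of complex IV: Cox8a had 1898 TPM, Cox6a1 1713 TPM and Cox4i1 1037 TPM. In complex V the catalytic alpha and beta subunits Atp5a1 (941 TPM) and Atp5b (912 TPM) led. In complex I the accessory subunit Ndufb9 (663 TPM) and Ndufa4 (373 TPM) led, in complex II the flavoprotein Sdha (384 TPM), and in complex III the small subunits Uqcr11 (447 TPM) and Uqcr10 (355 TPM). Exon lengths are those of all annotated exons merged, so a gene with long alternative exons, such as Ndufb7 with 4522 exon bases around a coding sequence of 411 bases, is understated per length.

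Several subunits exist as paralogs, and the forms known from heart, skeletal muscle, lung or testis were near the lower end. Cox4i2 had 6.88 TPM beside 1037 TPM for Cox4i1, Cox6a2 had 35.5 beside 1713 TPM for Cox6a1, and Cox6b2 had 5.25 beside 598 TPM for Cox6b1. Cox7a1 had 4.94 TPM, whereas Cox7a2 had 459 and Cox7a2l, which joins complexes III and IV, 361 TPM. Cox8b had 3.85 TPM, and Ndufa4l2, a hypoxia-inducible relative of Ndufa4, had 10.8 TPM. The c subunit of the ATP synthase rotor is encoded by 3 genes whose mature proteins are identical. Of these, Atp5g3 had 306 TPM, Atp5g2 150.5 TPM and Atp5g1 91.4 TPM. Many members have processed pseudogene copies, and read pairs that matched several places were left out by the counting, so their levels may be understated.

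Before the comparison, 3 libraries stood apart (FR1, FR2 and MR2), and a measure of each library moved with the treatment and with the members. For every gene, the log2 CPM in a library was set against the average of that gene in all 16, and the differences were regressed on log2 exon length. A negative slope means that short genes took more of the counts in that library. It ran from 0.000395 to 0.1 in vehicle and from -0.127 to 0.064 in rapamycin libraries, a difference of -0.0978 within batches (exact permutation test over 4620 assignments, two-sided p = 0.000866). The difference was -0.1 in batch 1 and -0.0923 in batch 2. FR2, MR2 and FR1 had the lowest slopes, -0.127, -0.122 and -0.121, and the highest shares of read pairs on the members, 1.46% in MR2, 1.40% in FR2 and 1.36% in FR1. In the other 13 libraries that share was 0.814% to 1.16%, and it was lowest in FC4, FR4 and MC4. The share on genes of the mitochondrial genome was 2.64% to 5.47% with vehicle and 3.75% to 6.99% with rapamycin, and FR1, FR2 and MR2 were again the highest.

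**Figure D1:**
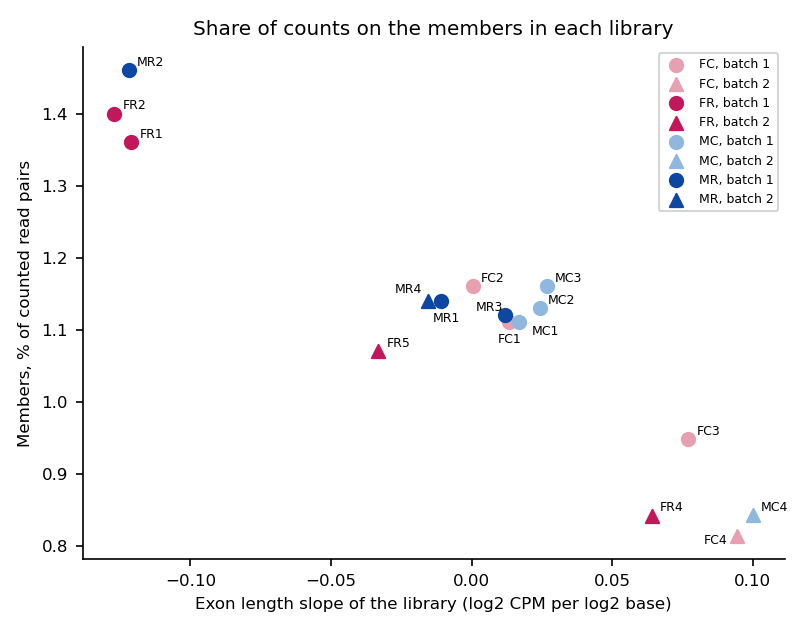
Share of counted read pairs on the 90 members (y axis, %) against the exon length slope of the library (x axis, log2 CPM per log2 base) in each of the 16 libraries; colours are groups, circles are batch 1 and triangles are batch 2. FR1, FR2 and MR2 lie at the upper left, with 1.36% to 1.46% of read pairs and slopes of -0.127 to -0.121, and FC4, MC4 and FR4 at the lower right.

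Rapamycin was then compared with vehicle over both sexes, 8 libraries against 8, with sex and batch as terms. Levels are given below as CPM, a gene's read pairs scaled to the library's size, and changes as log2 fold changes. Of 89 members tested, 53 rose and 0 fell at an adjusted p under 0.05, and 36 did not pass the test. Over all 16553 genes tested, 1069 rose (6.46%) and 1136 fell (6.86%). The median log2 fold change was 0.33 over the members and 0.015 over all genes, and 84 of 89 members had a value above 0. The changes were small: only Uqcr11 also reached 1.5-fold, which 114 of all genes (0.689%) did upwards. In this bulk tissue, a larger number of cells of a type and more RNA per cell cannot be told apart.

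With the slope as a covariate, 0 members passed the test (0 at an unadjusted p under 0.05 in edgeR), the median log2 fold change was -0.05 and 67 of 89 members lay below 0. In that fit 0 of all genes passed and 965 had an unadjusted p under 0.05. With offsets that remove the trend with exon length within each library, 8 members passed, all upwards (median 0.13; 362 of all genes rose): Ndufb7, Ndufab1, Cox6c, Ndufa13, Ndufa11, Sdhc, Atp5j and Cox4i1. Without FR1, FR2 and MR2, a choice made after seeing the data, 0 members passed (10 at an unadjusted p under 0.05), the median was 0.17 and 81 of 89 lay above 0. In that fit 1 of all 17233 genes tested passed, and 2216 had an unadjusted p under 0.05. By complex, the medians without these 3 libraries were 0.18 (I), 0.16 (II), 0.16 (III), 0.21 (IV) and 0.16 (V). For Uqcr11, for example, the log2 fold change was 0.59 ± 0.13 (SE) without and 0.00 ± 0.11 with the slope as a covariate. With the mitochondrial share as a covariate, 0 members passed in edgeR and the median was 0.12. In that fit 0 of all genes passed as well, and 1207 had an unadjusted p under 0.05.

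**Figure D2:**
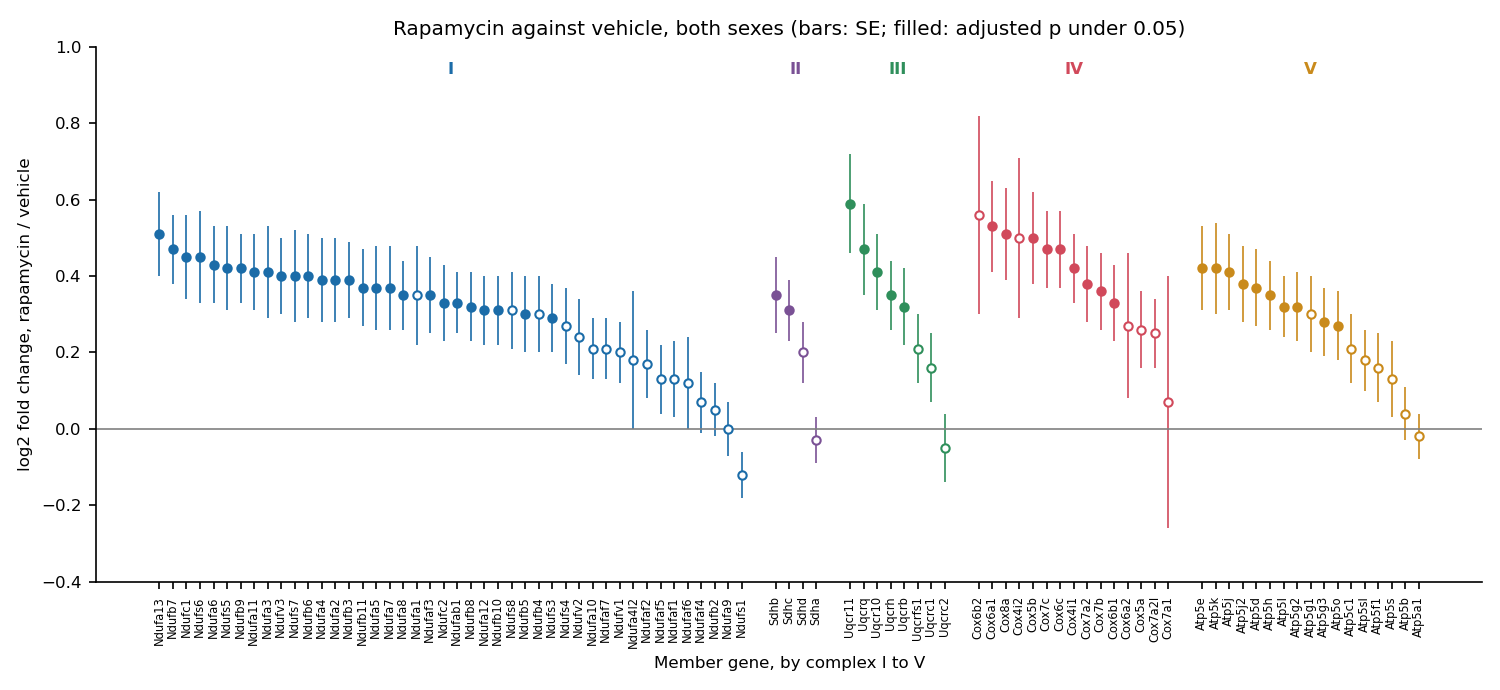
log2 fold change of rapamycin against vehicle over both sexes (y axis) for 88 of the 89 members tested (x axis), grouped by complex I to V; bars are standard errors, and filled points passed an adjusted p of 0.05 in edgeR. The 53 members that passed all lie above 0, and the lowest values in each complex belong to Ndufs1, Sdha, Uqcrc2, Cox7a1 and Atp5a1.

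In complex I, 27 of 45 members rose (median log2 fold change 0.33), and they were mostly accessory subunits, which surround the catalytic core. Of 31 accessory members 24 rose (median 0.37), of 7 core subunits 2 rose (median 0.23), and of 7 assembly factors 1 rose (median 0.13), namely Ndufaf3 (edgeR adjusted p = 0.0282, and 0.0504 without the library labelled MR4). Ndufb7 read 52.5, 53.7, 46.5 and 44.8 CPM in FC1 to FC4 and 87.3, 73.9, 47.1 and 56.5 CPM in FR1, FR2, FR4 and FR5. The male libraries held 52.5, 50.4, 55.2 and 42.8 CPM (MC1 to MC4) and 65.1, 91.9, 59.2 and 57 CPM (MR1 to MR4). Ndufb7, an accessory subunit of the membrane arm, was highest in MR2, FR1 and FR2, and among batch 1 libraries its vehicle and rapamycin values did not overlap. Its change was 0.47 ± 0.09 (log2, SE; edgeR adjusted p = 0.0119).

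Ndufa13 had 60.9 to 89.9 CPM (median 85.6) with vehicle and 65.3 to 147 CPM (median 97.7) with rapamycin (log2 fold change 0.51, edgeR adjusted p = 0.0129). Ndufb9 had 87 to 134 CPM (median 127) with vehicle and 99 to 218 CPM (median 140.3) with rapamycin (0.42, adjusted p = 0.014). Ndufa13 is also known as GRIM-19, and Ndufb9 and Ndufa6 belong to the LYR-motif family of small mitochondrial proteins. Ndufa6 had 39.3 to 71.4 CPM (median 60.4) with vehicle and 49.1 to 100.4 CPM (median 66.2) with rapamycin (0.43, adjusted p = 0.0156). Ndufa4 had 104 to 166 CPM (median 154) with vehicle and 108 to 252 CPM (median 160.4) with rapamycin (0.39, adjusted p = 0.0252). For each of these genes the vehicle and rapamycin ranges overlapped, and FC4, MC4 and FR4 of batch 2 were the lowest. Ndufa4l2, the low paralog of Ndufa4, did not pass the test (log2 fold change 0.18 ± 0.18 SE).

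The core of complex I holds the flavin and the iron-sulfur clusters that carry electrons from NADH to ubiquinone. Ndufs7, which carries the last cluster before ubiquinone, rose (log2 fold change 0.40 ± 0.12 (SE), edgeR adjusted p = 0.0361), and Ndufs3 rose as well (log2 fold change 0.29, edgeR adjusted p = 0.0448). Without the library labelled MR4 neither passed (adjusted p = 0.0563 and 0.0793). The other 5 did not pass the test. Among them, the log2 fold changes were 0.31 for Ndufs8 (edgeR adjusted p = 0.0546), 0.24 for Ndufv2 and 0.20 for Ndufv1, which holds the flavin. Ndufs1 averaged 131 ± 17.5 CPM in FC, 114 ± 8.25 in FR, 137 ± 10.9 in MC and 127 ± 4.52 in MR (SD, n = 4). This gene, which encodes the largest subunit, had the lowest log2 fold change of all members at -0.12 ± 0.06 (SE; edgeR adjusted p = 0.2), and in batch 1 its 5 rapamycin libraries lay below its 6 vehicle libraries.

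Complex II, succinate dehydrogenase, is also an enzyme of the tricarboxylic acid cycle. Sdhc, a membrane anchor, and Sdhb, the iron-sulfur subunit, rose, and Sdhd, the other anchor, and Sdha, the flavoprotein that oxidizes succinate, did not pass the test. Sdhb read 121, 116, 107 and 82.4 CPM in FC1 to FC4 and 175, 156, 79 and 119 CPM in FR1, FR2, FR4 and FR5. MC1 to MC4 gave 122, 123, 119 and 84.6 CPM, and MR1 to MR4 gave 123, 170.4, 124 and 119.7 CPM. Sdhb was highest in FR1, MR2 and FR2, and the arms overlapped, since FR4 was the lowest of all libraries (log2 fold change 0.35 ± 0.10 (SE), edgeR adjusted p = 0.0289, and 0.0517 without the library labelled MR4). Sdhc had 64.9 to 89.3 CPM (median 83.1) with vehicle and 66.4 to 119.5 CPM (median 94.5) with rapamycin (log2 fold change 0.31, edgeR adjusted p = 0.0207). Sdhd had 53.4 to 81.1 CPM (median 73.2) with vehicle and 55.6 to 87.5 CPM (median 81.7) with rapamycin (0.20, adjusted p = 0.0936).

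Sdha read 492, 483, 470 and 389 CPM in FC1 to FC4 and 437, 429, 400.4 and 426 CPM in FR1, FR2, FR4 and FR5. Its values were 497, 496, 510.3 and 422 CPM in MC1 to MC4 and 486, 456, 510.2 and 481 CPM in MR1 to MR4. The Sdha values of the arms overlapped over nearly their whole range, and the libraries highest for Sdhb were not the highest for Sdha. Its log2 fold change was -0.03 ± 0.06 (SE; edgeR adjusted p = 0.764).

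**Figure D3:**
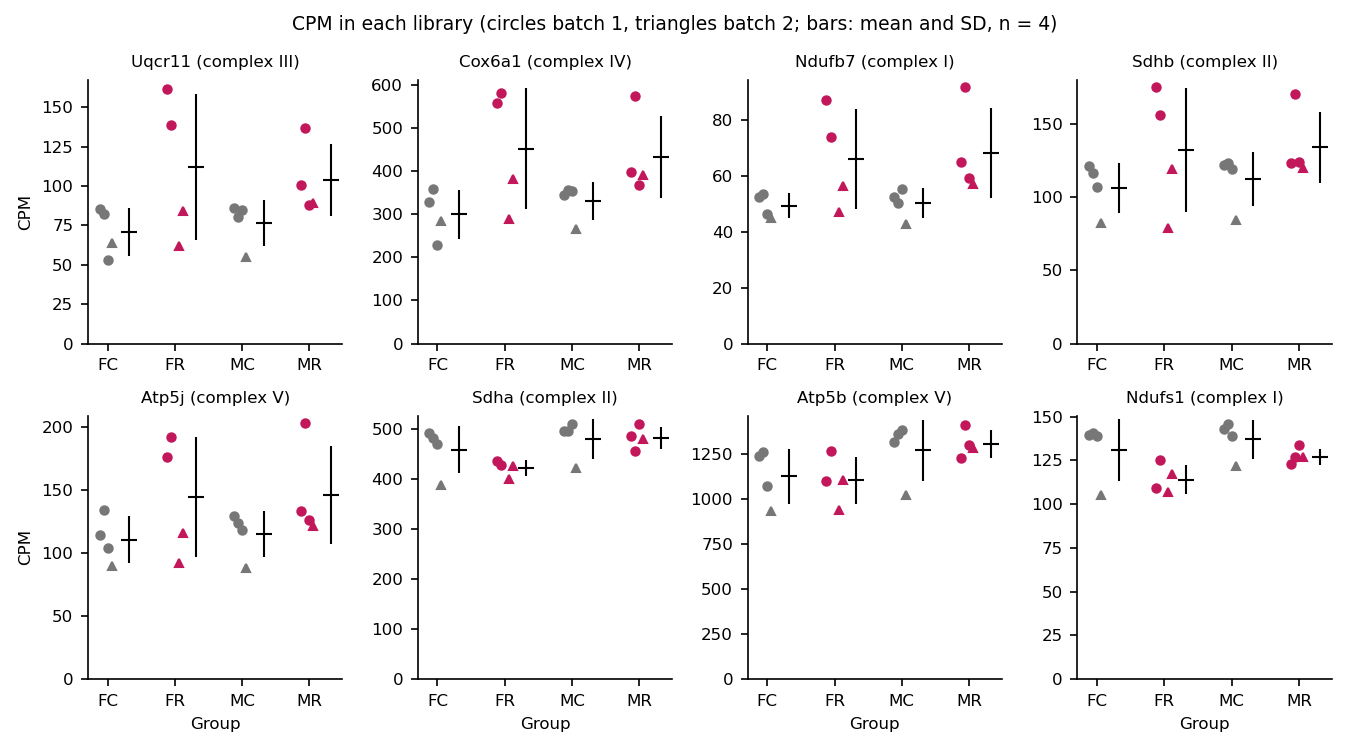
CPM (y axis) of 8 members in each library of the groups FC, FR, MC and MR (x axis); circles are batch 1, triangles are batch 2, and the bars beside them are the mean and SD of 4 libraries. Uqcr11, Cox6a1, Ndufb7, Sdhb and Atp5j have 2 high FR libraries and 1 high MR library, a pattern that Sdha, Atp5b and Ndufs1 do not show.

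In complex III, ubiquinol-cytochrome c reductase, 5 of 8 members rose (median log2 fold change 0.34). All 5 are small subunits without redox centres: Uqcr11, Uqcrh, Uqcr10, Uqcrq and Uqcrb. For Uqcrb the value was 0.32 on the log2 scale (edgeR adjusted p = 0.0379, and 0.0673 without the library labelled MR4). Uqcr11 read 85.2, 82.2, 53.2 and 63.9 CPM in FC1 to FC4 and 162, 139, 62.1 and 84.5 CPM in FR1, FR2, FR4 and FR5. In males it read 86.1, 80.6, 84.6 and 54.9 CPM in MC1 to MC4 and 101, 137, 88.1 and 89 CPM in MR1 to MR4. FR1, FR2 and MR2 stood above every other library, and FC3, MC4, FR4 and FC4 were the lowest. The change of Uqcr11 was 1.51-fold (log2 fold change 0.59 ± 0.13 (SE), edgeR adjusted p = 0.0152).

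Uqcrh had 67.3 to 128 CPM (median 117) with vehicle and 80.7 to 182 CPM (median 119) with rapamycin (log2 fold change 0.35, edgeR adjusted p = 0.021). Uqcrh is the hinge protein at the cytochrome c side of the complex. Uqcr10 had 39.8 to 67.2 CPM (median 63) with vehicle and 47.5 to 102 CPM (median 66.6) with rapamycin (0.41, adjusted p = 0.021), and Uqcrq had 63.4 to 102 CPM (median 90.6) with vehicle and 60.5 to 152 CPM (median 102) with rapamycin (0.47, adjusted p = 0.0216). The arms of these genes overlapped as well. The Rieske iron-sulfur protein Uqcrfs1 and the core proteins Uqcrc1 and Uqcrc2, named here after their values were seen because they complete the 8, did not pass the test. Their log2 fold changes were 0.21, 0.16 and -0.05.

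In complex IV, cytochrome c oxidase, 9 of 15 members tested rose, and the median log2 fold change, 0.42, was the largest of the 5 complexes. Cox6a1 read 329.8, 358, 229 and 284 CPM in FC1 to FC4 and 559.7, 582, 290 and 382 CPM in FR1, FR2, FR4 and FR5. The male libraries held 346, 357, 354 and 266 CPM (MC1 to MC4) and 399, 575, 368 and 391 CPM (MR1 to MR4). FR2, MR2 and FR1 were the highest for Cox6a1, and in batch 1 its arms did not overlap (log2 fold change 0.53 ± 0.12 (SE), edgeR adjusted p = 0.0157). Cox4i1 had 338 to 487 CPM (median 476) with vehicle and 347 to 759.6 CPM (median 532) with rapamycin (log2 fold change 0.42, edgeR adjusted p = 0.0149). Cox4i1 is the subunit at which ATP is known to inhibit the enzyme.

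Cox7c had 60 to 115 CPM (median 110.1) with vehicle and 80 to 175 CPM (median 119) with rapamycin (0.47 on the log2 scale, edgeR adjusted p = 0.0133). Cox6c had 114 to 196 CPM (median 180.5) with vehicle and 136 to 323 CPM (median 197) with rapamycin (0.47, adjusted p = 0.014). Cox8a had 197 to 316 CPM (median 292) with vehicle and 243 to 527 CPM (median 342) with rapamycin (0.51, adjusted p = 0.0182). These 3 are single-pass or small subunits around the core of mitochondrially encoded proteins, and their arms overlapped. Of the ubiquitous paralogs, Cox7a2 (0.38, edgeR adjusted p = 0.0243) and Cox6b1 (0.33, adjusted p = 0.0363, and 0.0602 without the library labelled MR4) also rose. Cox7a2l did not pass the test (0.25, adjusted p = 0.0774).

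The tissue-restricted paralogs of complex IV did not pass the test, and their errors were wide. The log2 fold changes were 0.50 ± 0.21 (SE) for Cox4i2, 0.56 ± 0.26 for Cox6b2, 0.27 ± 0.19 for Cox6a2 and 0.07 ± 0.33 for Cox7a1. Cox7a1 had as few as 3 counts and Cox6b2 as few as 7 in a library. The values of Cox4i2 and Cox6b2 were about as large as that of Cox6a1, with wider errors.

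In complex V, 10 of 17 members rose (median log2 fold change 0.30). The 10 were parts of the stalks, the rotor and the membrane-bound part. Atp5j read 114, 134, 104 and 89.4 CPM in FC1 to FC4 and 176, 192, 92 and 116 CPM in FR1, FR2, FR4 and FR5. MC1 to MC4 gave 129, 124, 118 and 88.2 CPM, and MR1 to MR4 gave 133, 203, 126 and 121 CPM. Atp5j, part of the peripheral stalk, was highest in MR2, FR2 and FR1, and its arms overlapped (log2 fold change 0.41 ± 0.10 (SE), edgeR adjusted p = 0.02). Atp5e had 38.8 to 70.6 CPM (median 62.7) with vehicle and 43.4 to 119 CPM (median 71.2) with rapamycin (log2 fold change 0.42, edgeR adjusted p = 0.0219). Atp5e encodes the epsilon subunit at the foot of the catalytic head. Atp5l had 40.6 to 91.5 CPM (median 83.9) with vehicle and 46.9 to 128 CPM (median 89.9) with rapamycin (0.32, adjusted p = 0.0232), and Atp5h had 87.8 to 139.6 CPM (median 135) with vehicle and 95.1 to 218 CPM (median 138) with rapamycin (0.35, adjusted p = 0.0251).

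Among the genes of the c subunit, Atp5g2 (0.32 on the log2 scale, edgeR adjusted p = 0.0322) and Atp5g3 (0.28, adjusted p = 0.0451) rose, but without the library labelled MR4 neither passed (adjusted p = 0.053 and 0.078). Atp5g1 lay just outside the threshold (0.30, adjusted p = 0.0506). The alpha and beta subunits of the catalytic head, in which ATP is made, were the most abundant of the complex and did not pass the test. Atp5b read 1236, 1261, 1071 and 933 CPM in FC1 to FC4 and 1097, 1264, 939 and 1107 CPM in FR1, FR2, FR4 and FR5. Its values were 1316, 1358, 1381 and 1021 CPM in MC1 to MC4 and 1225, 1408, 1298 and 1281 CPM in MR1 to MR4. The arms overlapped throughout, with the lowest values in FC4, FR4 and MC4 (log2 fold change 0.04 ± 0.07 (SE), edgeR adjusted p = 0.735). Atp5a1 had 683 to 1057 CPM (median 999.6) with vehicle and 675 to 1026 CPM (median 921) with rapamycin (log2 fold change -0.02 ± 0.06 SE, edgeR adjusted p = 0.874).

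Across complexes, the members that rose shared a feature that their choice by name did not use: short coding sequences. The longest coding sequence, taken from GENCODE M21, had a median of 372 bases in the 53 members that rose and 744 bases in 35 of the 36 others (none was found for Atp5sl), against 1425 bases over all genes tested that have one. Of 50 members under 500 bases 39 rose (78%), of 25 members from 500 to under 1000 bases 13 rose (52%), and of 13 members of 1000 bases or more 1 rose (7.69%). That 1 gene was Ndufv3, named here after its values were seen. Over the 88 members, the log2 fold change and log2 coding length had a Pearson r of -0.69 and a Spearman rho of -0.63, a description across genes that share the same libraries. For log2 exon length, on which the slope is based, they were -0.43 and -0.39.

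The other genes tested moved in the same order of length. In the same classes 27%, 12.4% and 2.31% of them rose, 0.372%, 1.41% and 10.5% fell, and their median log2 fold changes were 0.26, 0.14 and -0.06. The members had medians of 0.38, 0.30 and 0.13. No test of this difference was made.

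**Figure D4:**
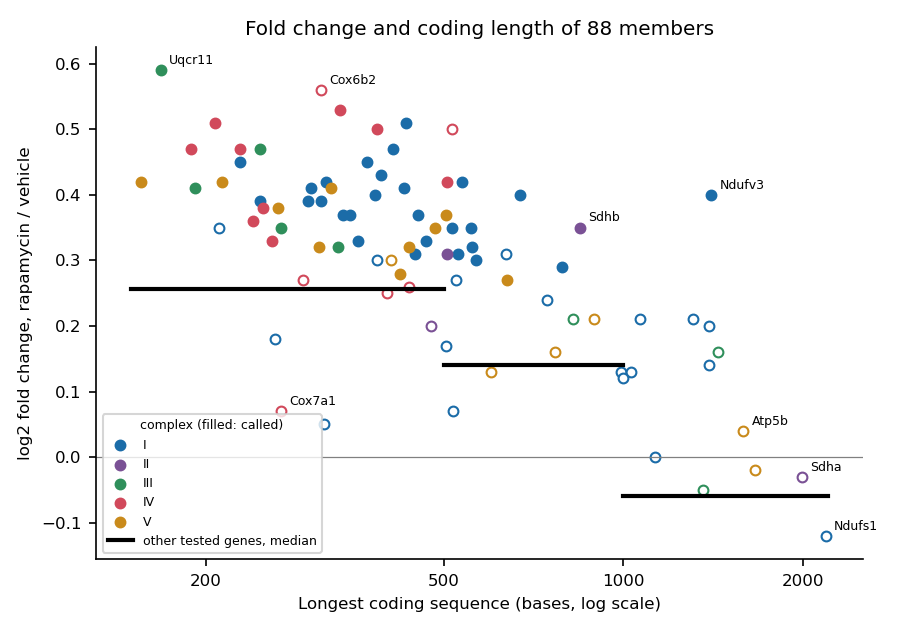
log2 fold change of rapamycin against vehicle over both sexes (y axis) against the longest coding sequence in bases (x axis, log scale) for 88 members, coloured by complex and filled where the adjusted p was under 0.05. Black lines are the medians of all other tested genes in the classes under 500 bases (0.26), from 500 to under 1000 bases (0.14) and 1000 bases or more (-0.06), with the first and last class drawn to the edges of the members' range.

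Single libraries also moved the count. Beside each count stands the share of all genes that rose in the same fit. The count was 13 without FR1 (1.87%), 16 without MR2 (2.42%), 17 without FR2 (2.22%), 26 without MC4 (3.44%), 35 without FC3 (3.84%) or FR5 (4.05%) and 66 without FR4 (10.1%). Without the library labelled MR4 it was 33 (4.34%), so 20 of the 53 members lost the call. A set of 12 members passed in each of the 16 fits: Ndufb7, Ndufa13, Ndufb9, Ndufa6, Ndufa11, Uqcr11, Cox4i1, Cox5b, Cox6a1, Cox6c, Cox7c and Cox8a. Ndufa11 and Cox5b are named here only as parts of this count. How many of all genes passed in each of the 16 fits was not counted. None of the 12 passed with the slope as a covariate or without FR1, FR2 and MR2. Other calls rested on fewer fits: Sdhc passed in 15 of 16, Atp5j, Atp5e and Uqcrh in 14, Uqcrq and Uqcr10 in 13, Atp5h, Atp5l and Cox7a2 in 12, Ndufa4 in 11, Sdhb in 8, Ndufs7 in 6, Cox6b1 and Atp5g2 in 5, and Ndufs3, Atp5g3 and Uqcrb in 3. The largest adjusted p of each came without FR1, FR2 or MR2. Within batch 1 alone, 27 members rose (median log2 fold change 0.35; 3.42% of all genes rose). Without the batch term 0 passed (0.308% of all genes rose). Within batch 2 alone 0 passed in edgeR, with 5 libraries, and the median was 0.34.

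**Figure D5:**
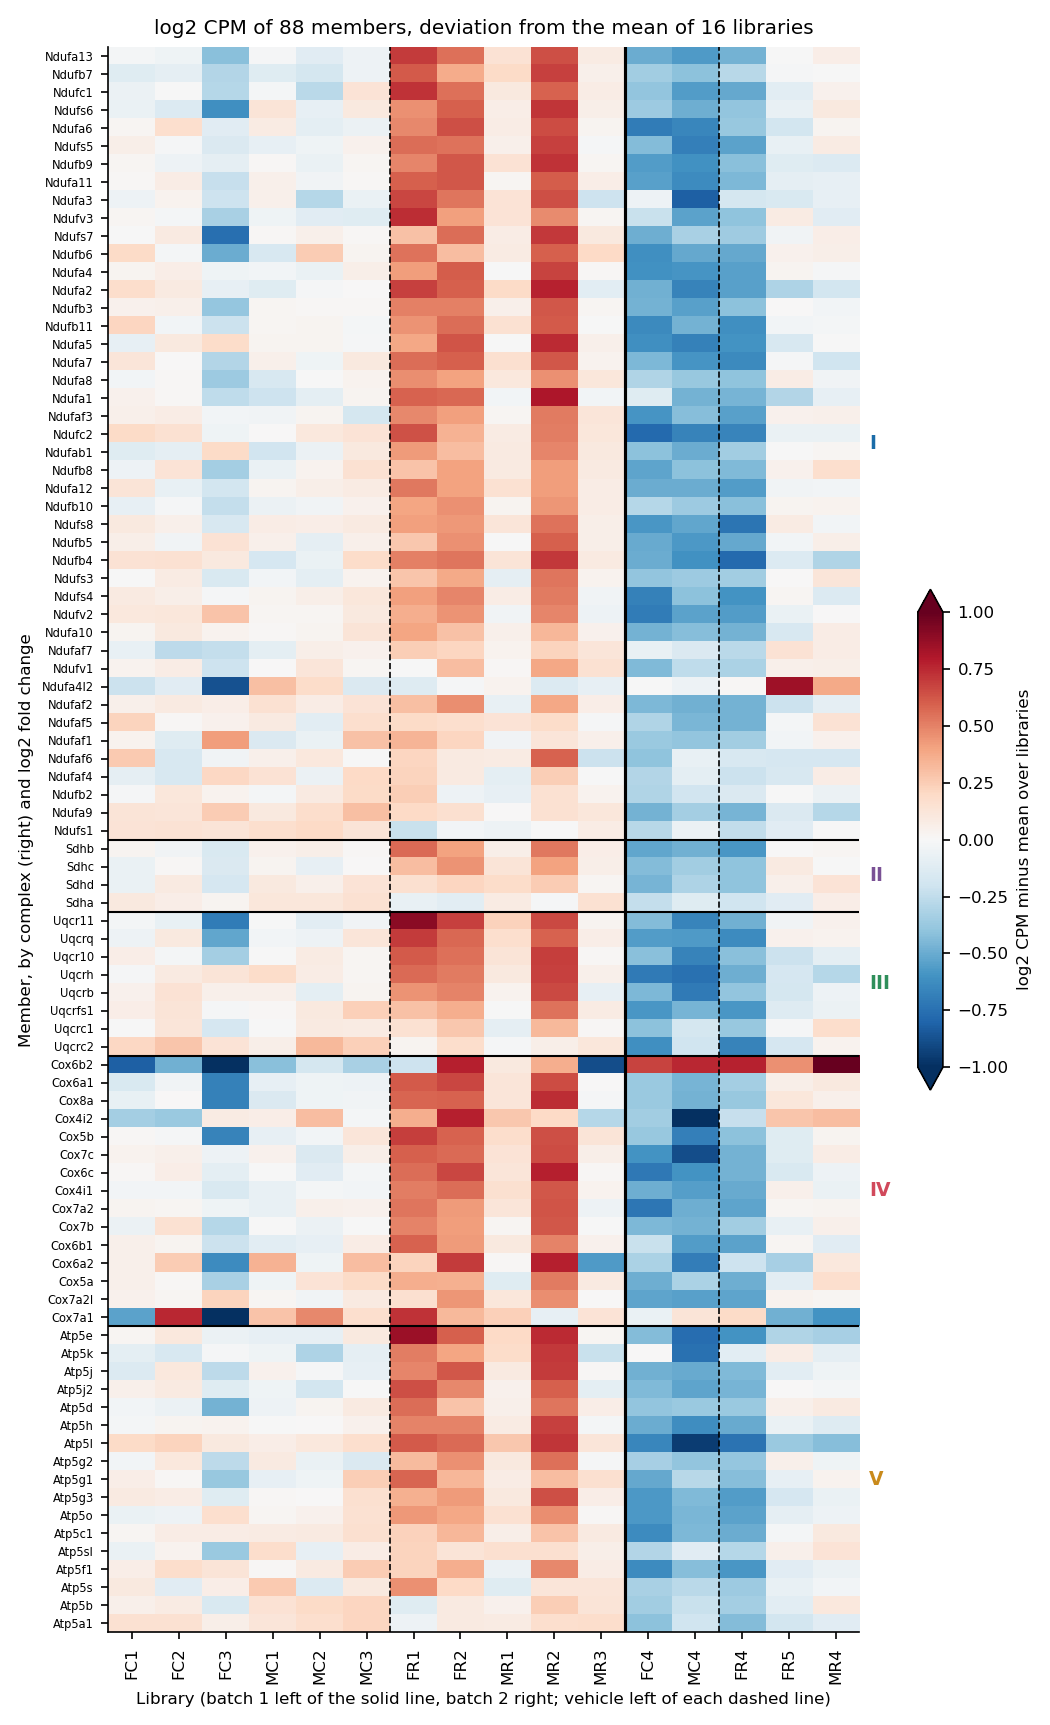
Deviation of log2 CPM from the mean of the 16 libraries (colour, red above and blue below, truncated at 1) for 88 of the 89 members tested (rows, by complex and falling log2 fold change) in each library (columns, batch 1 before batch 2 and vehicle before rapamycin within each). Most rows are red in FR1, FR2 and MR2 and blue in FC4, MC4 and FR4, whereas MR1 and MR3 lie near the vehicle libraries of batch 1.

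The sexes were compared next. In females (FR against FC) 0 members passed the test, with 59 at an unadjusted p under 0.05 in edgeR. Of all 16553 genes tested, 2 passed (0.0121%) and 3818 had an unadjusted p under 0.05 in that fit. The median log2 fold change of the members was 0.37 and 85 of 89 were above 0. Uqcr11 (log2 fold change 0.72 ± 0.19 (SE), edgeR adjusted p = 0.0707) and Cox6a1 (0.65, adjusted p = 0.0707) had the smallest p. The female count depended on the fit, and so did the share of all genes that rose. DESeq2 called 24 members (3.56% of all genes), edgeR without the filter on low counts 33 (2.19%), batch 1 alone 24 (3%), the fit without FR4 48 (5.66%) and the fit without MR2 6 (0.883%), with every member called upwards.

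In males (MR against MC) 0 members passed in edgeR, with 43 at an unadjusted p under 0.05, and 0 passed in DESeq2. Of all 16553 genes, 0 passed in edgeR and 1990 had an unadjusted p under 0.05. DESeq2 called 15 of all genes upwards and 12 downwards. The median log2 fold change of the members was 0.29, and 83 of 89 were above 0. It was 0.22 without the library labelled MR4 and 0.19 without MR2, and without FR1, FR2 and MR2 it was 0.17 in males and 0.15 in females. Cox7c (log2 fold change 0.49 ± 0.14 (SE), edgeR adjusted p = 0.363) and Ndufb7 (0.44, adjusted p = 0.363) had the smallest p. Without the library labelled MR4 they were 0.34 and 0.43 (edgeR adjusted p = 0.703 and 0.703).

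Whether the sexes responded differently was tested as an interaction. No member passed (0 at an unadjusted p under 0.05 in edgeR, 0 in DESeq2, 0% of all genes), the median difference in log2 fold change, female minus male, was 0.09, and the largest was 0.90 ± 0.64 (SE) for Cox7a1, which has few counts. For Uqcr11 it was 0.26 ± 0.26, and for Sdhb 0.13 ± 0.20. Without the library labelled MR4 these 3 differences were 0.78 ± 0.70, 0.37 ± 0.28 and 0.26 ± 0.20, and 0 members passed in edgeR. Vehicle females and males (FC against MC) did not differ at the threshold in any member (0 at an unadjusted p under 0.05 in edgeR, 0 in DESeq2). Of all genes, 2 passed in edgeR (0.0121%), and DESeq2 called 2 higher and 7 lower in females. The median log2 difference of the members, female minus male, was -0.05. The smallest adjusted p of a member was 0.999. Without the library labelled MR4, edgeR called 1 of all genes higher and 5 lower in females.

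The mitochondrially encoded partners of these subunits all had log2 fold changes above 0 in the comparison over both sexes, in which 6.46% of all genes rose. Of the 7 complex I subunits of the mitochondrial genome 6 rose, with log2 fold changes of 0.49 to 0.87 over all 7, and of the 6 subunits of complexes III to V 2 rose (0.49 to 0.89 over all 6). The smallest p belonged to mt-Nd3 (0.80 ± 0.18 (SE), edgeR adjusted p = 0.0145), mt-Nd6 (0.65, adjusted p = 0.0182) and mt-Nd4 (0.53, adjusted p = 0.02) in the first group. In the other they were mt-Cytb (0.52 ± 0.12 (SE), edgeR adjusted p = 0.0159) and mt-Co1 (0.49, adjusted p = 0.0167), followed by mt-Atp6, which did not pass. Both mt-Nd3 and mt-Nd6, with mt-Cytb and mt-Co1, passed whichever library was left out, while mt-Nd5 passed in 9, mt-Nd1 in 12, mt-Nd2 in 14 and mt-Nd4 in 15 of the 16 fits. With the slope as a covariate none of these 13 genes passed. The log2 fold changes were then 0.25 to 1.07 for the 7 complex I subunits, and for the others 0.28 (mt-Cytb), 0.23 (mt-Co1), -0.04 (mt-Atp8), -0.12 (mt-Atp6), -0.24 (mt-Co2) and -0.44 (mt-Co3).

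Other nuclear genes of the pathway were counted by list, beside 6.46% of all genes that rose and 6.86% that fell. Of 37 assembly factors outside the members' prefixes, 5 rose and 0 fell, and the 5 were Uqcc2 and Uqcc3, which act on cytochrome b of complex III, Sdhaf4 (complex II), Surf1 (complex IV) and Ecsit (complex I). Their log2 fold changes were 0.46 for Uqcc2 (edgeR adjusted p = 0.0179), 0.46 for Sdhaf4, 0.32 for Surf1, 0.41 for Uqcc3 and 0.30 for Ecsit. Of 17 electron carriers, ubiquinone synthesis enzymes and the ATPase inhibitor, 3 rose: Etfb (0.69 ± 0.14 (SE), edgeR adjusted p = 0.0122), which hands electrons from fatty acid oxidation to the chain, Atpif1 (0.53, adjusted p = 0.0161), which blocks reverse action of the ATP synthase, and Coq2 (0.21, adjusted p = 0.0473). Uqcc2, Etfb and Atpif1 passed whichever library was left out, Surf1 passed in 12 and Sdhaf4 in 11 of the 16 fits, and Uqcc3, Coq2 and Ecsit in only 3, 3 and 4, with the largest adjusted p without FR1, FR2 or MR2. With the slope as a covariate none of the 8 passed, and the log2 fold changes were 0.42 for Etfb, 0.11 for Sdhaf4, -0.05 for Uqcc2, -0.15 for Uqcc3, and within 0.02 of 0 for Surf1, Ecsit, Atpif1 and Coq2.

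Of 17 regulators of respiratory gene transcription tested, 0 rose, 2 fell and 15 did not pass, beside 6.46% of all genes that rose and 6.86% that fell. Esrrg, an orphan nuclear receptor that acts on mitochondrial genes, had 25.5 to 38.3 CPM with vehicle and 14.2 to 24.4 CPM with rapamycin (log2 fold change -0.72 ± 0.10 (SE), edgeR adjusted p = 0.00743). Esrrg passed whichever library was left out, and its value was -0.61 with the slope as a covariate (adjusted p = 0.739). The coactivator gene Ppargc1b had 6.25 to 15.7 and 2.18 to 13.9 CPM (-0.85, adjusted p = 0.0219), and its value was -0.05 with the covariate. It passed in 14 of 16 fits that left out a library, and had an edgeR adjusted p of 0.0561 without FR1. Ppargc1a, its relative, did not pass (-0.33, adjusted p = 0.0672). These 3 genes have 6208, 3990 and 6592 exon bases.

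Of 17 enzymes of the tricarboxylic acid cycle, apart from complex II, 3 rose and 1 fell, while 6.46% of all genes rose and 6.86% fell. Idh2 had the largest rise (0.59 ± 0.12 (SE), edgeR adjusted p = 0.0128), followed by Suclg1 (0.30) and Suclg2 (0.27), both of succinyl-CoA ligase, and Ogdh, a dehydrogenase subunit of the cycle, fell (-0.20, edgeR adjusted p = 0.0404). Idh2 passed whichever library was left out, Suclg1 passed in 11, Suclg2 in 4 and Ogdh in 3 of the 16 fits, with the largest adjusted p without FR1, MC4 and FR2. With the slope as a covariate none of these genes passed, and the log2 fold changes were 0.06 (Idh2), -0.02 (Suclg1), 0.27 (Suclg2) and -0.06 (Ogdh).

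Markers of other cell types and regions were read in the same fit, in which 6.46% of all genes rose and 6.86% fell. All 12 neuronal markers were detected in every library, as the tissue label requires (summed level 10916 to 11731 CPM in FC, 9538 to 11709 in FR, 10598 to 11333 in MC and 9374 to 12183 in MR), and none of them passed the test. None of the oligodendrocyte, microglia, plaque-associated microglia, striatum, hippocampus, blood and muscle lists had a member past the threshold. Of 8 choroid plexus markers 3 fell, Sostdc1 (-1.89 ± 0.49 (SE), edgeR adjusted p = 0.0227), Aqp1 (-1.73) and Kcnj13 (-1.52). The summed level of this list was 192 to 688 CPM in FC, 175 to 376 in FR, 249.8 to 2965 in MC and 203 to 449.9 in MR, no marker was at 0 in any library, and without MC4 none of the 3 passed (edgeR adjusted p = 0.146, 0.365 and 0.177). A single gene passed in each of 4 further lists, the astrocyte (Gjb6, log2 fold change 0.47), endothelial (Ly6c1, 0.59), parvalbumin interneuron (Kcnc1, -0.32) and thalamus lists (Rora, -0.47). Gjb6 passed whichever library was left out, while Ly6c1 passed in 12, Rora in 6 and Kcnc1 in 4 of the 16 fits. With the slope as a covariate none of the 4 passed, and the values were 0.37 (Gjb6), 0.06 (Ly6c1), -0.08 (Kcnc1) and -0.02 (Rora). The 3 choroid plexus genes did not pass with it either, at -3.11 (Sostdc1), -2.16 (Aqp1) and -1.22 (Kcnj13). When 1 library was left out, Sostdc1 passed in 15 of the 16 fits and Aqp1 and Kcnj13 in 7 each. The part of these lists in the members' change was not tested.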

How the data were processed

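RNA of mouse cortex was measured in 16 libraries, 4 in each of FC, FR, MC and MR. The authors deposited unnormalized counts of read pairs for each gene. These counts were made, per the methods and the submitters' processing notes, with FastQC 0.11.9, Trimmomatic 0.39, Trim Galore (version not given in the sources used here), HISAT2 2.2.1 on GRCm38 (mm10) and featureCounts 2.0.3 on Ensembl genes. Strand was not used, so overlapping antisense genes cannot be told apart, and read pairs that matched several places were left out. The authors' group tables repeat the same counts and were not used. The labels give each library as a separate sample, while the study's text speaks both of pooled cortical samples and of single mice, so p values measure the spread between these libraries, which may be technical in part. Within groups, pairs of libraries differed by 11.5 to 128 times the sampling noise (chi-square per degree of freedom), so no 2 libraries agreed within sampling noise, which does not tell whether they come from separate animals.

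Counts were normalized with TMM factors in edgeR 4.0.16 (R 4.3.3), low genes were removed with filterByExpr (minimum count 10), and the quasi-likelihood test was run with sex, batch and treatment as terms for both sexes, and with the 4 groups and batch for the single-sex comparisons, the interaction and FC against MC. The Benjamini-Hochberg adjustment ran over the 16553 genes left, and a gene rose or fell at an adjusted p under 0.05. CPM values use the TMM factors, log2 CPM values a prior count of 2, and TPM values the exon lengths of the count table. Alternatives were DESeq2 1.42.0, other size factors, no filter, a 1.5-fold minimum, no batch term, a replicate block, each batch alone, each library left out, and the exon length slope (lowess span 0.3 for the offsets) or the mitochondrial share as terms. Each comparison was tested first on simulated data, with planted changes larger than those of the members. These data held no batch effect, exon length trend or outlying library, so they do not show how the tests behave under them. Coding lengths came from GENCODE M21 and promoter sequences from RefSeq, both on GRCm38. Figures were drawn with matplotlib 3.10.9.

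The genes named are, for each complex, the 4 with the smallest p over both sexes and the 2 with the highest TPM, the paralogous subunits, complex II, any member called where 5 or fewer are, the core subunits of complex I, and the 3 smallest p of the lists of mitochondrial genes and regulators. Others are named as members of a counted set. The members and the gene lists were chosen with earlier results of these data known, so no count over them is independent support. Single items of the genotype and of the member list are not reported here.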

Additional observations from a re-analysis of the deposited data

Results flagged for a closer look

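Each group of 4 libraries was searched for a value whose gap to the nearest other library exceeded Dixon's 95% limit. In 156 groups of values, for the named members and 3 library measures, 25 values were set apart. By chance the limit flags about 1 in 20 independent groups. These groups share the same 16 libraries and are not independent, so the 25 cannot be compared with that rate. Most of the 25 belonged to MR2 and MC4. MR2 stood above the other MR libraries in Ndufa13 at 142 CPM (others 94.6 to 100), Ndufa6 at 100.4 CPM (others 64.9 to 67.2), Ndufa4 at 252 CPM (others 157 to 159.6), Sdhb at 170.4 CPM (others 119.7 to 124), Cox7c at 175 CPM (others 115 to 122), Cox6c at 323 CPM (others 181 to 205), Cox6a1 at 575 CPM (others 368 to 399), Cox8a at 527 CPM (others 312 to 343) and Atp5j at 203 CPM (others 121 to 133). Its share of read pairs on the members was 1.46% (others 1.12% to 1.14%).

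MC4, the one MC library of batch 2, stood below the other MC libraries in Ndufb9 at 87 CPM (others 127 to 134), Sdhb at 84.6 CPM (others 119 to 123), Sdha at 422 CPM (others 496 to 510.3), Uqcr10 at 39.8 CPM (others 63.3 to 67.2), Cox4i1 at 338 CPM (others 469 to 487), Cox6a1 at 266 CPM (others 346 to 357), Atp5l at 40.6 CPM (others 82.1 to 88.1), Atp5h at 87.8 CPM (others 135 to 139.6) and, in the opposite direction, above them in Cox6b2 at 2.68 CPM (others 1.13 to 1.35). Its share on the members was 0.843% (others 1.11% to 1.16%), and its exon length slope was 0.1 (others 0.017 to 0.0268). FC4, also of batch 2, was low for Atp5h at 96.1 CPM (others 133 to 138) and Cox7a2 at 64.4 CPM (others 103 to 108). FC3 was high for Cox4i2 at 1.74 CPM (others 1.24 to 1.27), and FR5 was high for Ndufa4l2 at 5.6 CPM (others 2.81 to 3.1). No named member differed between the sexes by the interaction test, and none moved one way in every FR library and the other way in every MR library.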

How the results depend on the processing

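Over both sexes, 53 members were called while 6.46% of all genes rose. With that share in brackets, the count was 59 (9.09%) in DESeq2, 52 (6.31%) with relative log size factors, 57 (8.6%) with upper quartile factors and 57 (4.01%) with no low-count filter. The count was 1 (0.689%) when 1.5-fold was required as well, 0 (0.308%) without the batch term, 0 (0%) with the exon length slope as a covariate, 8 (2.19%) with exon length offsets, 0 (0%) with the mitochondrial share as a covariate, 27 (3.42%) in batch 1 alone and 0 (0%) in batch 2 alone. Alternatives added after seeing the data gave 0 with a slope computed without the members and 0 without FR1, FR2 and MR2. Leaving out 1 library gave 13 to 66. For FR against FC the count of 0 became 24 in DESeq2, 33 without the filter and 24 in batch 1 alone, and 0 to 48 when 1 library was left out. For MR against MC it became 4 without the filter, a fit in which 204 of all 30248 genes rose and 322 fell. It was 0 to 0 when 1 library was left out. The counts for the interaction and for FC against MC were 0 under every alternative run. Of all genes, the interaction without the filter called 29 with a positive and 58 with a negative difference. For FC against MC without the filter, 87 were higher and 57 lower in females. Batch 2 holds 1 library each of FC, MC and MR, so single-sex fits in batch 2 alone were not run.

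Replicate numbers were not taken as a pairing, since the labels tie them to no litter, day or animal and not every pair correlated above 0.1: same-numbered deviations correlated from -0.16 to 0.67 (FC with FR alone 0.43 to 0.67, and 0.03 to 0.28 once batch was removed), and 10 of 14 libraries correlated best with their own number in the other arm. The number 4 is also batch 2 in every group, and this hint from the data does not settle whether the numbers are shared. With the replicate block the count over both sexes was 25 while 3.11% of all genes rose, and it was 0 in the other comparisons.

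With the slope as a covariate the medians turned negative (all members -0.05, complex I -0.05, complex II -0.02, complex III -0.07, complex IV -0.04, complex V -0.05), as they did with the slope computed without the members (all members -0.04, complex I -0.04, complex II -0.02, complex III -0.05, complex IV -0.03, complex V -0.04). With offsets the medians were lower than without them (all members 0.13, complex I 0.12, complex II 0.10, complex III 0.13). With the mitochondrial share they were lower as well (all members 0.12, complex I 0.13, complex III 0.06, complex IV 0.15, complex V 0.08). Of the named members, those with the other sign under the slope were Ndufa4 -0.06, Sdhb -0.07, Sdhd -0.04, Sdha 0.00, Uqcr11 0.00, Uqcr10 -0.03, Uqcrq -0.08, Cox6a1 -0.02, Cox8a -0.05, Atp5j -0.05, Atp5e -0.01, Atp5l -0.01, Atp5h -0.03, Atp5b -0.11, Cox6a2 -0.41, Cox6b1 -0.06, Cox6b2 -0.17, Cox7a1 -0.18, Cox7a2 -0.04, Ndufa4l2 -0.14, Atp5g1 -0.03, Atp5g2 -0.07, Atp5g3 -0.09. Under the slope computed without the members they were Ndufa4 -0.05, Sdhb -0.06, Sdhd -0.04, Uqcr10 -0.02, Uqcrq -0.08, Cox6a1 -0.01, Cox8a -0.04, Atp5j -0.03, Atp5h -0.02, Atp5b -0.11, Cox6a2 -0.39, Cox6b1 -0.05, Cox6b2 -0.14, Cox7a1 -0.20, Cox7a2 -0.03, Ndufa4l2 -0.15, Atp5g1 -0.03, Atp5g2 -0.06, Atp5g3 -0.08. With offsets they were Sdhd -0.02, Cox6a2 -0.01, Cox7a1 -0.19, Ndufa4l2 -0.05. With the mitochondrial share they were Sdha 0.02, Atp5a1 0.01, Cox6a2 -0.23, and without FR1, FR2 and MR2 they were Sdha 0.03, Cox6a2 -0.05, Cox7a1 -0.13. The remaining changes of sign were Sdha 0.14 (batch 2 alone), Atp5a1 0.01 (upper quartile factors), Atp5a1 0.11 (batch 2 alone), Atp5a1 0.00 (without FR replicate 1), Atp5a1 0.00 (without FR replicate 4), Atp5b -0.03 (batch 1 alone), Cox7a1 -0.38 (batch 2 alone), Cox7a1 -0.04 (without FC replicate 1), Cox7a1 -0.12 (without FC replicate 3), Cox7a1 -0.06 (without FR replicate 1). When 1 library was left out, Cox7a1 ran from -0.12 to 0.23. None of these values passed the test. Of the values for named members under all alternatives, 717 kept direction and side of the threshold, 225 kept direction and lost the call, and 11 gained one. The remaining 62 changed sign. Values that changed sign and also lost the call, such as Sdhb with the slope, are counted only among the 62. Depth limited only the lowest members, since Cox8b had as few as 1, Cox7a1 3, Cox6b2 7 and Cox4i2 13 counts in a library.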

Other observations

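Summed over the members of a complex, TPM followed the pattern of the subunits that rose where small subunits hold most of the sum. Complex IV summed to 5312 to 7489 TPM in the 8 vehicle libraries (median 7200.5) and 6490.4 to 9804 TPM in the 8 rapamycin libraries (median 8054). Complex II, where Sdha is the largest part, summed to 733 to 885 TPM and 761 to 912 TPM, and its highest library was the one labelled MR4 rather than FR1, FR2 or MR2. Complex V, with Atp5a1 and Atp5b as its largest parts, summed to 4122 to 5311 TPM and 4085 to 5493 TPM.

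Some forms were close to absent from these libraries. Cox8b, the heart and skeletal muscle form of subunit VIII, had 0.18 to 1.45 CPM with vehicle and 0.051 to 0.669 CPM with rapamycin, and its highest value was in MC4. Cox7b2 had 0 to 13 counts, and Cox8c had 0 counts in every library. Cox6b2, known from testis, was higher in every batch 2 library than in every batch 1 library but FR2, at 2.52, 2.71, 2.16, 2.68 and 3.6 CPM in FC4, FR4, FR5, MC4 and the library labelled MR4.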
